A study of Mus musculus with 10 samples.

Results

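The 36 genes described here mark the cells of brain blood vessels. Of these, 28 mark endothelial cells, which line the vessel lumen and in the brain form the blood-brain barrier, and 8 mark mural cells, the pericytes and smooth muscle cells that sit on the endothelium. They were chosen as a named list and found on the array through the RefSeq accession of each probe, and the brightest probe by mean intensity over all arrays stood for a gene. All 36 were among the 32585 features of the array, and 34 of them, 26 endothelial and 8 mural, were among the 23574 features that passed the filter on dim probes (Cy5 well above background on at least 5 of 10 arrays) and were tested. The genes were selected on known cell type, with the cKO minus WT differences in log2 ratio of these arrays already known, so those differences are given below as a description.

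Adult hippocampal RNA came from 5 mice in which the kinase DLK, the product of Map3k12, was conditionally knocked out (cKO), and from 5 wild-type (WT) mice. Mice of both genotypes were fed tamoxifen for 3 weeks before the tissue was taken. The sources used here name neither the recombinase nor the cells it acts in, and neither sex nor exact age. Each mouse had 1 two-colour Agilent array, on which its RNA carried Cy5 and a commercial mouse reference RNA pool carried Cy3. Values are log2 ratios of sample over reference, and differences are cKO minus WT.

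Endothelial cells of the brain are held together by claudins and occludin, form few transcytotic vesicles, and carry transporters that bring glucose, lactate and thyroid hormone in and pump drugs out. Their identity is set by transcription factors of the ETS family (Erg, Ets1) and the SOXF group (Sox7, Sox17, Sox18), and their growth by receptors for VEGF (Kdr, Flt1, Flt4) and angiopoietins (Tek, with Tie1). Pericytes are recruited through the PDGF receptor Pdgfrb and stabilise capillaries, while smooth muscle cells of arterioles contract with the actin Acta2 and the actin-binding protein Tagln.

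Promoter sequence is shown for 5 endothelial members, 3 with a difference near 0.2 (Cldn5, Robo4, Emcn) and 2 receptors with a difference near 0 (Tek, Kdr), because Sox17 and Sox18 had the largest differences among the transcription factors. Each is the 250 bases before the RefSeq start on build GRCm38.p6, 5′ to 3′ on the strand of the gene, and capitals mark a SOX motif (AACAAT) or an ETS motif (CAGGAA or CCGGAA) on either strand.
Cldn5 (chr16:18776597-18776846, plus strand): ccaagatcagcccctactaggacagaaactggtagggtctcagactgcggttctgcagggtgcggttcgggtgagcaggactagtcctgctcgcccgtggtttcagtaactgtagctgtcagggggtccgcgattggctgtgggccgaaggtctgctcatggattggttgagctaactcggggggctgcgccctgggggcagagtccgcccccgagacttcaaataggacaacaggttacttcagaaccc
Robo4 (chr9:37401722-37401971, plus strand): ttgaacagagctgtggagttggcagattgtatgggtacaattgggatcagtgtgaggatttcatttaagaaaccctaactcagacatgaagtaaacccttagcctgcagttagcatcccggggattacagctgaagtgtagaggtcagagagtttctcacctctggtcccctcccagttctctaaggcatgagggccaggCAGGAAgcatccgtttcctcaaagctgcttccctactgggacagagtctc
Emcn (chr3:137340828-137341077, plus strand): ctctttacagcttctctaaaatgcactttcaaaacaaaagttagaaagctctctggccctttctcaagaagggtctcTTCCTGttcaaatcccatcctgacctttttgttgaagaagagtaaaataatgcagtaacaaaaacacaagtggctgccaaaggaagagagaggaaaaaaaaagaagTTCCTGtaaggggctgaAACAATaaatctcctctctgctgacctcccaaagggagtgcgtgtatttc
Tek (chr4:94739039-94739288, plus strand): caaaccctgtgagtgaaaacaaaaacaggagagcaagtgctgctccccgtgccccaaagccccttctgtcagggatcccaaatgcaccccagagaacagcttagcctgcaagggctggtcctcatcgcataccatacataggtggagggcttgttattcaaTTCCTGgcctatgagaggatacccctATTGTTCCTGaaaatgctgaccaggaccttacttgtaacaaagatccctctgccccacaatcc
Kdr (chr5:75978456-75978705, minus strand): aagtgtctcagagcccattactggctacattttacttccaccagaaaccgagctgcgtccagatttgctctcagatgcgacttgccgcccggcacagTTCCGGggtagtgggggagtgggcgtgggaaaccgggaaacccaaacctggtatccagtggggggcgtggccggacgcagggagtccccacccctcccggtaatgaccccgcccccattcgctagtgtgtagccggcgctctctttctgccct

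The table of promoters held an entry for 26 of the 36 members. Those not in it were Vwf, Esam, Pecam1, Cdh5, Sox17, Sox18, Sox7, Ets1, Pdgfrb and Tagln. The 26 members with an entry had 34 promoter windows in all. The SOX motif stood in 3 of these 34, in the members Emcn, Erg and Tek, and in 9.42% of all 32851 promoter windows. The ETS motif CAGGAA stood in 12 of the 34 member windows, and in 25.7% of all windows. Those 12 belong to 10 members, Emcn, Robo4, Tek, Tie1, Egfl7, Nostrin, Erg, Abcg2, Rgs5 and Abcc9. CCGGAA stood in 2 of the 34 member windows, in Kdr and Ocln, and in 12% of all windows. In Tek the SOX motif and 1 of its ETS motifs overlap. Of the windows shown, those of Robo4, Emcn, Tek and Kdr hold motif letters, and that of Cldn5 holds none. These windows were picked by the differences of their genes, so nothing about the differences is read from the motifs.

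The arrays lay on 3 slides, and slide and genotype overlap in part: slide 1 held 4 cKO arrays, slide 2 held 1 cKO and 3 WT arrays, and slide 3 held 2 WT arrays. The arrays had median Cy5 signals of 146 to 202 and median Cy5 backgrounds of 29 to 31. Map3k12, which checks the labels, had log2 ratios of 0.64, 0.11, 0.64, 0.68 and 0.48 in cKO mice, against 2.11, 1.76, 1.74, 1.87 and 2.15 in WT mice. It averaged 0.51 ± 0.24 in cKO and 1.93 ± 0.19 in WT hippocampus (SD, n = 5 each), with no overlap. Its difference was −1.41 (SE 0.12; adjusted p = 0.000975 in limma; exact two-sided permutation p = 0.00794, the smallest that 5 against 5 allows). It was the 1 feature of 23574 that passed at an adjusted p of 0.05, or 0.00424%. None of the 34 kept members passed (adjusted p = 0.99995 for every one, limma with Benjamini-Hochberg adjustment). One Abcb1a spot stood apart. On WT replicate 4 it had a Cy5 signal of 29 and a Cy3 signal of 16 over a Cy5 background of 26, where the medians over all 10 arrays were 1213 and 133. Cy5 was thus barely above background there, and Cy3, the reference, was under the median Cy3 background of that array, 36. The differences and counts that this spot alters are given with and without it.

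Set against the reference RNA, the 2 classes differed in WT hippocampus. The WT log2 ratio was above 0 for 20 of 26 endothelial and 3 of 8 mural members, against 55.8% of all features. It was highest for Cldn5 (4.76 ± 0.07), Slco1c1 (4.27 ± 0.24), Robo4 (3.79 ± 0.13), Rgs5 (3.40 ± 0.14) and Esam (3.32 ± 0.08; SD, n = 5 each), and lowest for Acta2 (−2.37 ± 0.03) and Tagln (−1.68 ± 0.12). Among mural genes, the 3 above 0 were Rgs5, a regulator of G protein signalling, and Kcnj8 (1.09 ± 0.14) and Abcc9 (1.21 ± 0.23), the pore and regulatory subunit of a potassium channel of pericytes. Those below 0 were, besides the contractile genes, the aminopeptidase Anpep (−1.19 ± 0.06), the receptor Notch3 (−1.04 ± 0.16) and Pdgfrb (−0.71 ± 0.12). All arrays have the sample in Cy5, so each ratio includes the dye effect of its probe, and the makeup of the pool sets the zero. The log2 ratio of Slc2a1, the glucose transporter of the barrier, was −0.89 ± 0.35 in WT samples although its Cy5 signal of 13107 to 20924 was among the brightest. Erg was well above background on 0 of 5 cKO and 1 of 5 WT arrays, and Flt4 on none of the 10. These are the members that failed the filter.

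Between genotypes, endothelial members had mostly higher values in cKO samples and mural members differed less. Of the 26 endothelial members 22 were higher and 4 lower in cKO, with a median difference of 0.12. Of the 8 mural members 6 were higher and 2 lower, with a median of 0.04. Over all features 54.8% were higher, with a median of 0.01. An unadjusted limma p under 0.05 was found for 9 endothelial members, all with higher values, and for 0 mural members. The share of all features was 3.86%, or 2.83% higher and 1.03% lower. The list was chosen with this contrast known, so nothing is read from these counts. Bulk RNA cannot tell more vessel cells from more RNA of these genes in each cell. Nor can it tell either from RNA of these genes made by other cells, which was not tested.

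**Figure D1:**
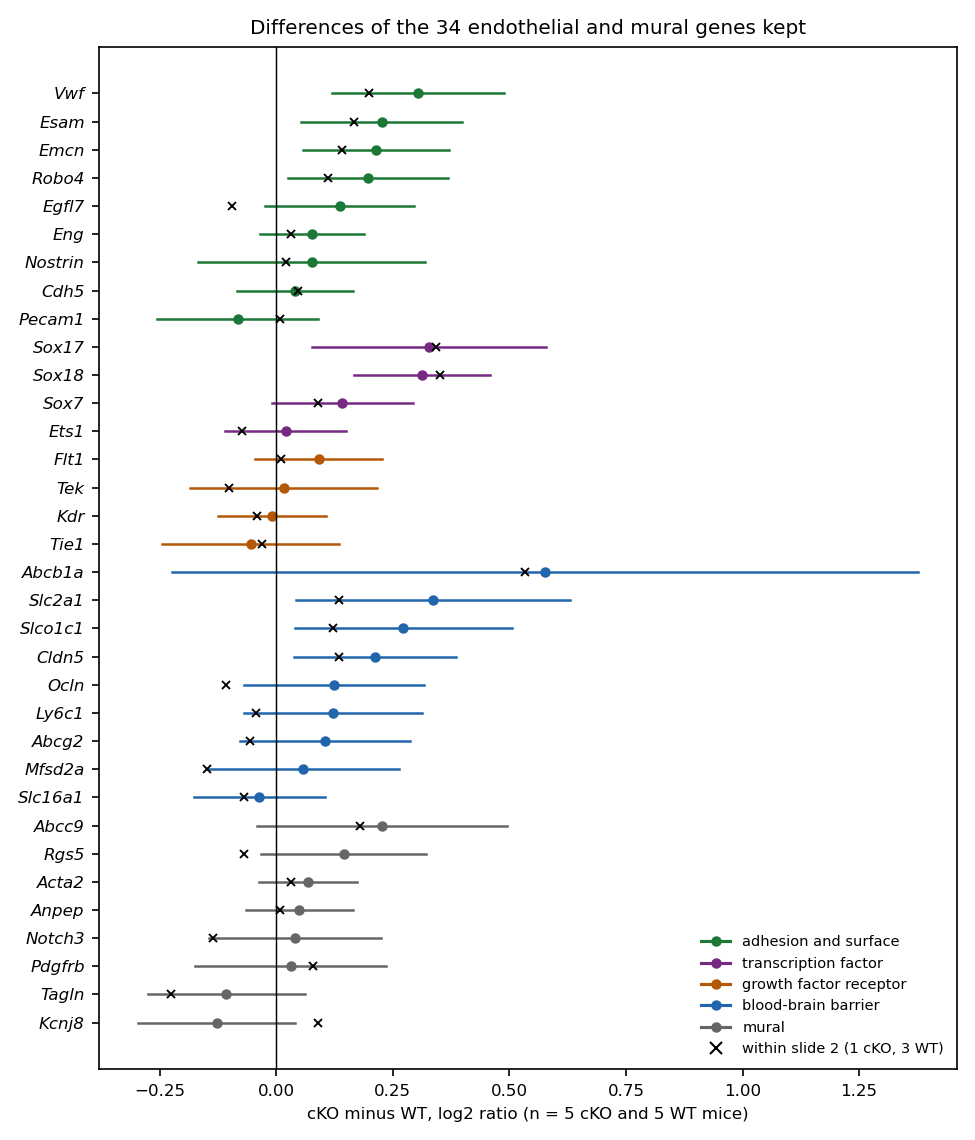
Difference in log2 ratio, cKO minus WT, of the 34 kept genes (points) with the 95% interval of the limma fit (lines, n = 5 mice each), coloured by role, and the value within slide 2 (crosses, 1 cKO and 3 WT mice). Endothelial surface, transcription factor and barrier genes lie mostly right of 0, the receptors and mural genes around it, and the point, interval and cross of Abcb1a include the WT replicate 4 spot.

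The groups did not overlap for 3 members, all with higher values in cKO (Vwf, Sox18 and Cldn5). Over all features, 0.525% had all cKO above all WT values and 0.243% the opposite. Vwf encodes von Willebrand factor, the clotting protein stored by endothelial cells. Its log2 ratios were 2.03, 1.69, 1.69, 2.0 and 1.79 in the 5 cKO mice, against 1.34, 1.59, 1.54, 1.56 and 1.66 in the 5 WT mice. The lowest cKO and the highest WT value were 1.69 and 1.66, so the groups were separate by a narrow margin. The means were 1.84 ± 0.16 and 1.54 ± 0.12 (SD, n = 5 each) and the difference was 0.30 (SE 0.08). Raw Cy5 signals of the Vwf spot overlapped, at 897 to 1445.5 in cKO and 756 to 1186 in WT mice.

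Another 3 surface genes had differences near 0.2. Esam encodes an adhesion molecule of endothelial junctions. It had log2 ratios of 3.60, 3.49, 3.56, 3.32 and 3.78 in cKO mice, against 3.42, 3.27, 3.40, 3.28 and 3.25 in WT mice. In all, 4 of the cKO values exceeded every WT value, and the difference was 0.23 (SE 0.08). Emcn encodes endomucin, a sialomucin of capillary and venous endothelium. Its values were 1.47, 1.27, 1.31, 1.36 and 1.44 in cKO mice, against 1.27, 1.1, 1.32, 1.0 and 1.09 in WT mice, a difference of 0.21 (SE 0.07) with overlap of the groups. Its Cy3 signal was 36 to 57, close to background, and its size moved with the processing, to 0.07 from Cy5 signals without the reference channel and 1.28 after plain background subtraction. Robo4, a receptor that steadies endothelial junctions, had values of 4.10, 3.87, 3.81, 4.07 and 4.06 in cKO mice, against 3.81, 3.75, 3.99, 3.73 and 3.65 in WT mice. Here 3 cKO mice lay above all WT mice, and the difference was 0.20 (SE 0.08).

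The other 5 surface members differed by less. They were the secreted factor Egfl7 (0.14, SE 0.07), the TGF-beta co-receptor Eng (0.08, SE 0.05), Nostrin (0.08, SE 0.11), which binds endothelial nitric oxide synthase, and the junction proteins Cdh5 (0.04, SE 0.06) and Pecam1 (−0.08, SE 0.08). Cdh5 and Pecam1, widely used markers of endothelium, had 95% intervals of −0.08 to 0.17 and −0.25 to 0.09. Both intervals include 0. Egfl7, unlike Vwf, Esam, Emcn and Robo4, had the opposite sign within slide 2 (−0.09).

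Among transcription factors the SOXF genes had higher values in cKO samples. Sox18 was at 2.58, 2.47, 2.44, 2.53 and 2.50 in cKO mice, against 2.0, 2.22, 2.35, 2.14 and 2.26 in WT mice. Every cKO value lay above every WT value, by 0.31 on average (SE 0.07, 95% interval 0.17 to 0.46). Its Cy3 signal was low, at 48 to 59. Raw Cy5 signals of the Sox18 spot overlapped, at 352.5 to 545 in cKO and 333 to 489 in WT mice. Over the alternatives described below its difference was 0.20 to 0.61. Sox17, which acts in arterial endothelium, was at 2.13, 2.45, 2.36, 2.78 and 2.48 in cKO mice, against 2.18, 1.82, 2.17, 2.31 and 2.07 in WT mice. In all, 4 cKO mice were above all WT mice, and cKO replicate 1 was not. On that array the Sox17 spot had the highest Cy5 signal of all 10 (749) and a Cy3 signal of 123, against 45 to 63 on the other arrays. The Sox17 difference was 0.33 (SE 0.12), and a second Sox17 probe gave 0.29 (SE 0.11). Sox7 was at 0.59, 0.49, 0.47, 0.66 and 0.40 in cKO mice, against 0.25, 0.45, 0.28, 0.49 and 0.43 in WT mice, with 2 cKO mice above all WT mice and a difference of 0.14 (SE 0.07). Ets1 differed by 0.02 (SE 0.06). Within slide 2 the differences of Sox18 and Sox17 were 0.35 and 0.34, as large as over all arrays.

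Growth factor receptors showed the smallest differences. Kdr, the main signalling receptor for VEGF, was at 0.40, 0.31, 0.32, 0.36 and 0.25 in cKO mice, against 0.38, 0.24, 0.30, 0.42 and 0.34 in WT mice. The ranges almost coincided, and the difference was −0.01 (SE 0.05, 95% interval −0.12 to 0.11). A second Kdr probe gave 0.14 (SE 0.09). The 2 probes lay at unlike levels, with WT means of 0.34 for the brightest and 2.85 for the second. Which of them reads Kdr better was not tested. Flt1, a VEGF receptor that acts in part as a decoy, differed by 0.09 (SE 0.06), the angiopoietin receptor Tek by 0.02 (SE 0.09) and its partner Tie1 by −0.05 (SE 0.09). The 4 kept receptors had a median of 0.00, with 2 higher and 2 lower in cKO.

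**Figure D2:**
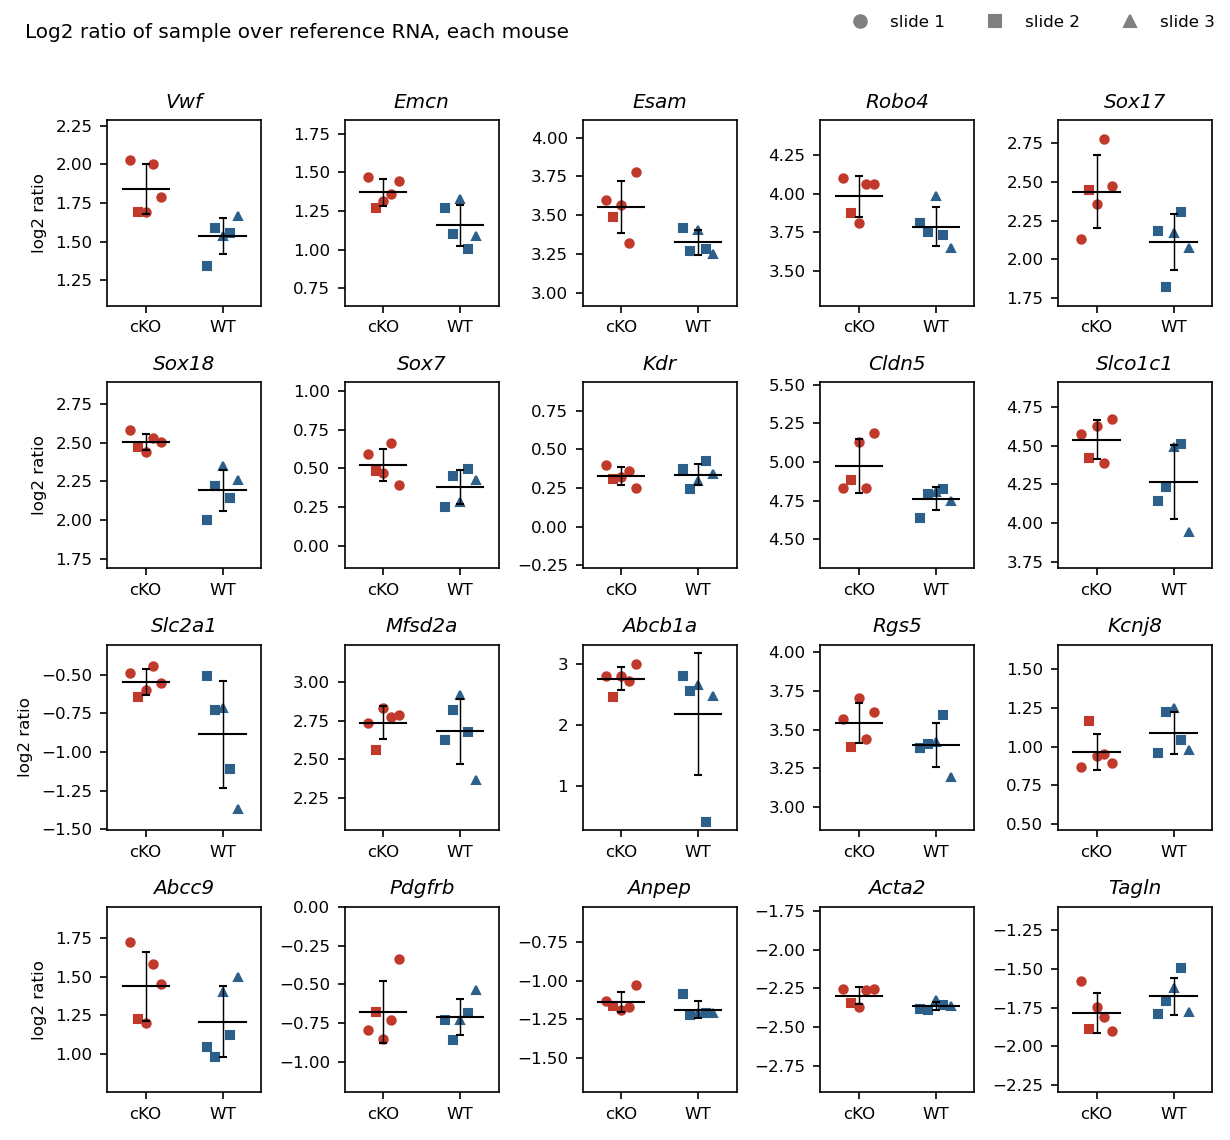
Log2 ratio of sample over reference RNA in each of the 5 cKO and 5 WT mice for 20 member genes, with group mean and SD in black and marker shape giving the slide. Panels span at least 1.2 log2 units. Vwf, Sox18 and Cldn5 have no overlap between genotypes, the groups overlap for Kdr and Pdgfrb, and 1 WT point of Abcb1a lies at 0.42.

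Barrier genes had higher values in cKO samples in 8 of 9 cases. Cldn5, the claudin that seals brain endothelium, was at 4.83, 4.89, 5.13, 4.83 and 5.19 in cKO mice, against 4.64, 4.79, 4.81, 4.82 and 4.75 in WT mice. The lowest cKO value of 4.83 lay just above the highest WT value of 4.82, and the difference was 0.21 (SE 0.08). Raw Cy5 signals of the same spot did overlap, at 5959 to 6634 in cKO and 4819 to 7584 in WT mice, and with the Cy5 channel alone the difference was 0.01. Slco1c1, which carries thyroid hormone across the barrier, was at 4.57, 4.42, 4.63, 4.39 and 4.68 in cKO mice, against 4.15, 4.23, 4.49, 4.51 and 3.94 in WT mice. In all, 3 cKO mice exceeded all WT mice, and the difference was 0.27 (SE 0.11), while a second probe gave 0.10 (SE 0.10). Slc2a1 was at −0.49, −0.65, −0.60, −0.45 and −0.56 in cKO mice, against −0.51, −0.73, −0.71, −1.11 and −1.37 in WT mice. Its difference was 0.34 (SE 0.14). WT replicates 4 and 5 were the lowest, and WT replicate 1 lay within the cKO range.

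Abcb1a, the drug efflux pump P-glycoprotein, was at 2.81, 2.46, 2.81, 2.72 and 3.00 in cKO mice, against 2.81, 2.56, 2.66, 0.42 and 2.47 in WT mice. With all 10 values it had the largest difference of any member, 0.58 (SE 0.37). Without the spot of WT replicate 4 it differed by 0.13 (SE 0.10, 95% interval −0.09 to 0.36; n = 5 cKO and 4 WT mice). Mfsd2a, a lipid transporter that keeps transcytosis low, was at 2.73, 2.56, 2.83, 2.78 and 2.78 in cKO mice, against 2.63, 2.82, 2.92, 2.68 and 2.37 in WT mice. The groups overlapped fully and the difference was 0.06 (SE 0.09). The tight junction protein Ocln differed by 0.12 (SE 0.09; second probe 0.12), the surface antigen Ly6c1 by 0.12 (SE 0.09; second probe 0.11), the efflux pump Abcg2 by 0.10 (SE 0.08) and the lactate transporter Slc16a1 by −0.04 (SE 0.06). Within slide 2, the cKO mouse was above the mean of the WT mice for Cldn5, Slc2a1 and Slco1c1. It was above each of them only for Cldn5. For Slc2a1 it was at −0.65, with WT replicate 1 at −0.51, and for Slco1c1 at 4.42, with WT replicate 4 at 4.51. Abcb1a differed there by 0.53 with the spot of WT replicate 4 and by −0.22 without it, so 4 or 3 of the 9 barrier genes were higher.

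Mural members were mixed. Rgs5 was at 3.57, 3.39, 3.71, 3.44 and 3.61 in cKO mice, against 3.38, 3.41, 3.42, 3.59 and 3.19 in WT mice, a difference of 0.14 (SE 0.08) with 2 cKO mice above all WT mice. Abcc9 differed by 0.23 (SE 0.12), while its partner subunit Kcnj8 had lower values, 0.87, 1.16, 0.94, 0.95 and 0.90 in cKO mice, against 0.96, 1.22, 1.25, 1.04 and 0.98 in WT mice. In all, 4 cKO mice lay below all WT mice for Kcnj8, a difference of −0.13 (SE 0.08), but the cKO mouse of slide 2 did not, and within that slide the difference was 0.09. Its spots were dim, with Cy3 signals of 41 to 51. Over all arrays the subunits of this channel thus had differences of opposite sign. Both 95% intervals include 0, at −0.04 to 0.49 for Abcc9 and −0.30 to 0.04 for Kcnj8. Within slide 2 the difference of Abcc9 was 0.18, of the same sign as that of Kcnj8. Abcc9 spots were dim too, with Cy3 signals of 39 to 69.

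Pdgfrb was at −0.79, −0.68, −0.85, −0.73 and −0.34 in cKO mice, against −0.73, −0.86, −0.73, −0.69 and −0.54 in WT mice, a difference of 0.03 (SE 0.09). The highest value of either group was that of cKO replicate 5, and the rest overlapped. Acta2 was at −2.25, −2.35, −2.37, −2.26 and −2.26 in cKO mice, against −2.38, −2.39, −2.33, −2.36 and −2.37 in WT mice. It varied least of all mural members, with 3 cKO mice above all WT mice and a difference of 0.07 (SE 0.05). Tagln, the other contractile gene, was at −1.58, −1.89, −1.75, −1.81 and −1.90 in cKO mice, against −1.79, −1.71, −1.62, −1.50 and −1.78 in WT mice. Here 3 cKO mice were below all WT mice, with a difference of −0.11 (SE 0.08). Anpep differed by 0.05 (SE 0.05) and Notch3 by 0.04 (SE 0.08).

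Endothelial and mural members were compared within each mouse through their mean log2 ratios. The endothelial mean was 1.62, 1.51, 1.60, 1.60 and 1.63 in cKO mice, against 1.49, 1.44, 1.54, 1.40 and 1.35 in WT mice. All but cKO replicate 2 lay above every WT mouse, and the difference was 0.15. Without Abcb1a it was 0.13, with WT replicate 4 at 1.44. The mural mean was −0.07, −0.19, −0.17, −0.11 and −0.07 in cKO mice, against −0.21, −0.22, −0.12, −0.11 and −0.14 in WT mice, which overlapped and differed by 0.04. The endothelial minus the mural mean was 1.71 ± 0.03 in cKO and 1.60 ± 0.10 in WT mice (SD, n = 5 each), a difference of 0.11. Without Abcb1a it was 1.66 ± 0.03 in cKO and 1.57 ± 0.08 in WT mice, a difference of 0.09. The lowest value was that of WT replicate 5, at 1.44, and WT replicate 1, at 1.64, lay within the cKO range of 1.64 to 1.71.

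Within the endothelial class the mean differed by role. Transcription factors were at 1.11 to 1.26 in cKO and 0.90 to 1.01 in WT mice, and surface genes at 1.78 to 1.88 in cKO and 1.59 to 1.76 in WT mice, both without overlap. Receptors were at 1.12 to 1.27 in cKO and 1.08 to 1.28 in WT mice. Barrier genes without Abcb1a were at 1.48 to 1.67 in cKO and 1.22 to 1.59 in WT mice. On slide 2 alone, where 1 cKO mouse stands against 3 WT mice, the difference was 0.18 for transcription factors, 0.07 for surface genes, −0.04 for receptors and −0.00 for barrier genes without Abcb1a. It was 0.05 for all endothelial members without Abcb1a and −0.01 for mural members. On that slide 16 of 26 endothelial members were higher in cKO with the Abcb1a spot and 15 without it, and 5 of 8 mural members, against 50.4% of all features.

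**Figure D3:**
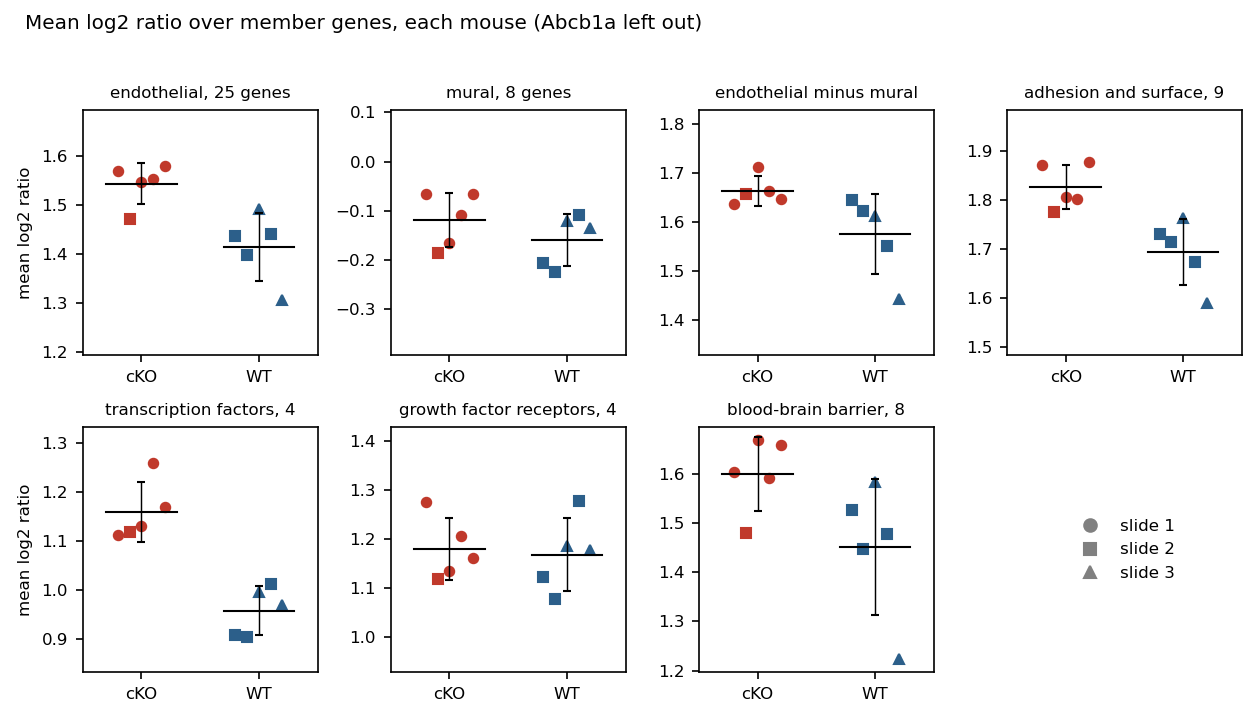
Mean log2 ratio over the endothelial members, the mural members, their difference and the 4 endothelial roles in each of the 5 cKO and 5 WT mice, with Abcb1a left out, group mean and SD in black, and marker shape giving the slide. Each panel spans 0.5 log2 units. Transcription factor and surface means do not overlap between genotypes, and receptor and mural means do.

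None of the further vessel genes, listed apart from the members, passed over all features. Among all features, 54.8% were higher in cKO and 3.86% had an unadjusted limma p under 0.05. All cKO values lay above all WT values for 0.525%. Of 40 other endothelial genes 31 had higher and 9 lower values in cKO, with a median difference of 0.08, and 3 had an unadjusted p under 0.05, all higher. These were the adaptor gene She (0.20, SE 0.07), the connexin gene Gja4 (0.22, SE 0.09) and the amino acid transporter gene Slc38a5 (0.29, SE 0.13), of which the last 2 had the opposite sign within slide 2 (−0.06 and −0.18). The lowest difference was that of Sema3g, an arterial semaphorin (−0.12, SE 0.08). Of 24 other mural genes 18 were higher and 6 lower, with a median of 0.10, and 4 had an unadjusted p under 0.05, all higher. One of them, Gja4, stood in both lists. Those with the smallest p were Art3 (0.29, SE 0.09), the smooth muscle calponin Cnn1 (0.19, SE 0.06) and the forkhead gene Foxc1 (0.18, SE 0.06), and Cnn1 and Foxc1 did not overlap between genotypes. The lowest was Pde5a, a phosphodiesterase (−0.40, SE 0.25). So the other mural genes had a median at least as high as the other endothelial genes, while among the members the order was the reverse.

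In vessel signalling, 23 of 35 genes had higher and 12 lower values, with a median of 0.07. An unadjusted limma p under 0.05 was found for 5 genes with higher values and 1 with lower values, against 3.86% of all features. The netrin receptor Unc5b (0.32, SE 0.09) and Fzd4 (0.30, SE 0.09), the Norrin receptor needed for the barrier of the retina and cerebellum, had the smallest p, followed by the ligand gene Vegfd, which had the lowest difference (−0.31, SE 0.10). The highest difference was that of Angpt2 (0.35, SE 0.12), a ligand of Tek, named after its value was seen. Of 14 basement membrane genes 12 were higher, with a median of 0.03, and 2 had such a p, both with higher values. Among all features, 54.8% were higher. Smallest in p were Nid1 (0.26, SE 0.08), Col18a1 (0.16, SE 0.05) and Nid2 (0.13, SE 0.11), with Lamb1 the lowest (−0.03, SE 0.15). Vegfd had lower values in 4 of 5 cKO mice than in any WT mouse.

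Lists of other cell types held no gene that passed over all features. Their values are given beside those of the vessel genes, and their part in the vessel values was not tested. Choroid plexus and ependyma genes had higher values in cKO for all 15 kept members, with a median of 0.63. Their list mean was 1.41 to 2.55 in cKO and 0.55 to 1.47 in WT mice, and their summed Cy5 signal over background was 25370 to 106646 in cKO and 12670 to 27267 in WT mice. Cldn2 was not well above background on enough arrays to be kept. Choroid plexus has fenestrated vessels, marked by Plvap, which differed by 0.10 (SE 0.07). The 4 genes listed with it, Plvap included, had list means of −1.06 to −0.91 in cKO and −1.01 to −0.76 in WT mice. The others were Esm1 (−0.35, SE 0.17), Igfbp3 (−0.05, SE 0.09) and Cd24a (0.14, SE 0.09). How far each of them marks such vessels was not tested. Oligodendrocyte genes were higher for 8 of 10, with a median of 0.26 and list means of 3.20 to 3.45 in cKO and 2.89 to 3.22 in WT mice. Meningeal genes were higher for 9 of 12 (list means −1.37 to −1.09 in cKO and −1.43 to −1.26 in WT mice), blood cell genes for 8 of 9 (0.92 to 1.16 in cKO and 0.66 to 1.19 in WT mice), astrocyte genes for 8 of 10 (4.42 to 5.05 in cKO and 4.36 to 4.79 in WT mice) and microglial genes for 7 of 9 (2.23 to 2.48 in cKO and 2.05 to 2.40 in WT mice). The 11 marker genes of hippocampal neurons were all kept, with list means of 2.92 to 3.23 in cKO and 2.88 to 3.22 in WT mice. An unadjusted limma p under 0.05 was found for 9 of 15 choroid plexus and ependyma genes and 7 of 10 oligodendrocyte genes. It was also found for 4 of 12 meningeal and 2 of 9 blood cell genes, and for 0 astrocyte, microglial or neuron genes. All of these had higher values in cKO. Among all features, 3.86% had such a p and 54.8% were higher.

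**Figure D4:**
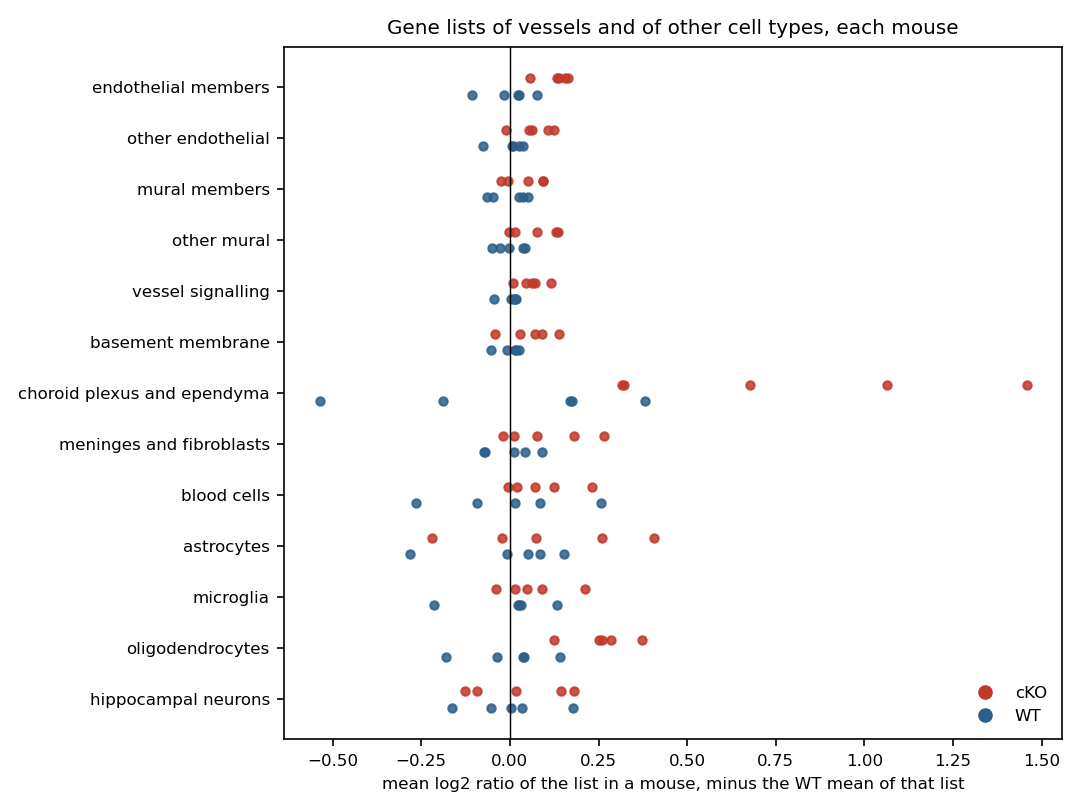
Mean log2 ratio of each gene list in each of the 5 cKO and 5 WT mice, as the deviation from the WT mean of that list, for vessel lists (Abcb1a left out) and lists of other cell types. Endothelial members differ by about 0.1, and choroid plexus and ependyma genes spread furthest, up to 1.46 above the WT mean.

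Several of these lists shared their lowest and their highest mouse, but the order of the other mice was not alike. For choroid plexus genes cKO replicate 2 was at 2.16, above every WT mouse. For astrocyte genes it was at 4.42, and only WT replicate 5 was lower. WT replicate 5 was the lowest mouse for endothelial members, other endothelial genes, choroid plexus, oligodendrocyte, astrocyte, microglial and blood cell genes. The highest of the 10 mice for endothelial members, choroid plexus, oligodendrocyte, astrocyte and microglial genes was cKO replicate 5. Without WT replicate 5 the endothelial median difference was 0.08, and without cKO replicate 5 it was 0.11.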

How the data were processed

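RNA of 10 hippocampi was read on 10 arrays of 44397 spots and 39429 probes. The authors obtained spot intensity values with Agilent Feature Extraction 11.0.1.1, per the file headers. Median intensity of spot and local background in Cy5 and Cy3 was used. Processed intensity and a log10 ratio of the channels, background-subtracted and dye-normalised, are also deposited, per the file headers. The authors' deposited table holds log2 values per probe. Each of its columns correlated at 0.99997 or more with the log2 ratios computed here without the non-uniform spots (0.974 for WT replicate 2 with them in the background fit), so its scale is log2 of sample over reference, without centring of genes, and it served as an alternative. Array weights, other backgrounds, normalisations, filters, slide and replicate blocks and leaving out each mouse were the other alternatives.

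Spots marked non-uniform were left out, backgrounds corrected with normexp (offset 50) and ratios normalised by loess within arrays in limma 3.58.1 (R 4.3.3). The offset pulls ratios of dim spots towards 0. Probes with Cy5 well above background on at least 5 of 10 arrays were kept (28682). Probes were named through RefSeq accessions without versions (assembly GRCm38.p6), which named 26581 probes, or 67.4%. Genotypes were compared with lmFit and eBayes, two-sided, with Benjamini-Hochberg adjustment over 23574 features. The fit was tested on simulated data.

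Values of all mice are given for 16 members fixed by name and for others with an unadjusted p under 0.05, and from each further list the 3 genes with the smallest p and the one with the largest fall are named. Members and lists were chosen with earlier results of these data known. No comparison of member scores was tested. Sample titles carry different numbers and the protocols speak of animals, so samples were taken as separate mice. The labels do not state this outright, and p-values measure the spread between these samples. The number of arrays limits the precision. Replicate numbers were checked for pairing and did not pair the mice (correlation of deviations −0.56 to 0.16).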

Additional observations from a re-analysis of the deposited data

Results flagged for a closer look

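Among 90 groups of 5 values, 4 held a mouse that stood apart by Dixon's criterion at the 95% level, and chance alone flags about 1 group in 20. Abcb1a in WT replicate 4 had a log2 ratio of 0.42, against 2.47 to 2.81 on the other WT arrays. At that spot Cy5 was barely above background, and Cy3 was under the median Cy3 background of the array. Anpep in WT replicate 1 was at −1.09, above the other WT arrays at −1.22 to −1.21. Tie1 in WT replicate 2 was at 0.63, below the other WT arrays at 0.84 to 0.93. Kcnj8 in cKO replicate 2 was at 1.16, above the other cKO arrays at 0.87 to 0.95.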

How the results depend on the processing

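Over 28 alternatives the median difference of endothelial members stayed above 0, at 0.016 to 0.19, and that of mural members at 0.02 to 0.07. The endothelial minus mural difference was 0.04 to 0.17, and 20 to 31 members had higher values. The endothelial median was 0.026 with slide as a fixed block or within slide 2, both of which rest on cKO replicate 2 and keep the low Abcb1a spot, and 0.19 when the background fit used every spot. The count of members with an unadjusted p under 0.05, 9 as reported, was 1 with scaling between arrays, with slide as a fixed block and within slide 2, 3 with processed signals, 4 with plain background subtraction, 5 when the background fit used every spot or with the Cy5 channel alone, and 14 with slide as a random block (fitted correlation −0.13). The number of features with unadjusted p under 0.05 was 911 as reported, and 289 with scaling, 582 with the Cy5 channel alone, 1406 without a filter, 1891 with slide as a random block, 1984 within slide 2 and 2007 with array weights. Features with an adjusted p under 0.05 (limma) numbered 1 as reported, 2 when the kept probes of a gene were averaged, and 0 with plain background subtraction, a background fit on every spot, scaling, the Cy5 channel alone or within slide 2. In these 5 fits the Map3k12 difference was −1.79 (adjusted p = 0.0582), −1.26 (0.971), −1.44 (0.0760), −1.18 (0.103) and −1.81 (0.112). Leaving out single mice gave 1 to 2 such features, 726 to 1128 at an unadjusted p under 0.05, 7 to 12 members at that level, 25 to 29 members higher, an endothelial median of 0.08 to 0.15, a mural median of 0.02 to 0.07, an endothelial minus mural difference of 0.08 to 0.13 and Map3k12 at −1.46 to −1.31. The replicate block gave 609 features and 8 members at an unadjusted p under 0.05, with medians as reported. In alternatives chosen after the data were seen, leaving out the Abcb1a spot gave an endothelial minus mural difference of 0.09. Within slide 2 it gave 0.04, an endothelial median of 0.016, an Abcb1a difference of −0.22, a Map3k12 difference of −1.81 (adjusted p = 0.110), and 1987 features and 1 member at an unadjusted p under 0.05, with 0 features at an adjusted p under 0.05. Vwf, Esam, Emcn, Robo4, Sox17, Sox18, Sox7, Eng, Flt1, Cldn5, Slco1c1, Slc2a1, Abcc9, Anpep and Acta2 stayed above 0 and Tagln below 0 in each alternative that gave them a value. Emcn, Tie1 and Kcnj8, with Cy3 signals near background, ranged over 0.07 to 1.28, −0.83 to 0.10 and −0.47 to 0.09. The causes of these changes were not tested.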
